A study of Rattus norvegicus with 44 samples.

Results

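The cytochrome P450 family was taken here as every deposited gene entry whose symbol begins with Cyp followed by a digit, which gave 71 genes of 32883 entries. Of these, 34 passed a filter on low values, an FPKM (sequenced fragments of a gene, scaled to its transcript length and to the library's total) above 1 in at least 9 of the 44 animals, and were tested. Of the other 37, 31 were above 0 in some animal and 6 (Cyp2b21, Cyp2b12, Cyp2g1, Cyp2b15, Cyp2j16 and Cyp19a1) were listed at 0 in all 44. Cytochrome P450 enzymes are heme proteins that insert oxygen into lipids, steroids, vitamins and drugs, drawing electrons from NADPH through the reductase Por or, in mitochondria, through ferredoxin. In rat kidney the CYP4A enzymes convert arachidonic acid into the vasoactive lipid 20-HETE, CYP2C enzymes convert it into epoxides that relax vessels, and mitochondrial P450s of the proximal tubule activate and degrade vitamin D.

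All animals were male ZSF1 OB rats, obese hybrids that carry the leptin receptor alleles fa and cp and develop diabetes, hypertension and nephropathy, so no lean or healthy control was among the groups. They carried telemetry transmitters and received in their feed, from 22 weeks of age for 6 months, the vehicle (Vehicle, n = 11), Enalapril at 3 mg/kg/day, an inhibitor of angiotensin-converting enzyme (n = 9), Compound 1, a stimulator of soluble guanylate cyclase (n = 12), or both (Combination, n = 12). Compound 1 alone was raised from 1 to 3 mg/kg/day during the study, whereas animals on the Combination received 3 mg/kg/day of Enalapril and stayed at 1 mg/kg/day of Compound 1, so that the dose of Compound 1 differed between these groups. One piece of right kidney per animal gave 1 RNA-Seq library, and no 2 libraries held identical values.

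Because FPKM hold no totals, the absolute depth of the libraries was unknown. The depth of a library relative to the others ranged from 0.747 to 1.27 for Vehicle, 0.826 to 1.28 for Enalapril, 0.858 to 1.28 for Compound 1 and 0.841 to 1.23 for the Combination. All 20 listed proximal tubule markers were detected in all groups, none of them listed at 0 in all animals. Their mean level was lowest in Compound 1 animal 3001 and Vehicle animals 1003 and 1004, and values without the latter pair are given beside the comparisons with Vehicle. A difference in a bulk kidney sample can be fewer cells of a type or less RNA per cell, which cannot be told apart.

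Cyp4a2, an arachidonic acid and fatty acid omega-hydroxylase, made up most of the P450 signal. Its level ran from 2782 to 4858 FPKM (median 4235) with Vehicle, from 3955 to 6033 (median 4921) with Enalapril, from 2025 to 5187 (median 4050) with Compound 1 and from 3653 to 5002.5 (median 4689) with the Combination. The groups overlapped widely, and no comparison with Vehicle passed the test for this gene. Cyp4a2 held 70.3 ± 1.83% (SD, n = 11) of all Cyp FPKM in Vehicle and 67.7 ± 1.14% (n = 12) with the Combination. All 71 genes together summed to 5804 ± 939 FPKM (SD) in Vehicle animals, 7017 ± 734 under Enalapril, 5578 ± 1112 under Compound 1 and 6716 ± 601 under the Combination.

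Below Cyp4a2 came Cyp2c23, the main arachidonic acid epoxygenase of rat kidney, at 635 ± 122 FPKM in Vehicle (SD, n = 11). Next were further CYP4A hydroxylases, Cyp4a3 at 238 ± 57.6 FPKM, Cyp4a8 at 166 ± 20.2 FPKM and Cyp4a1 at 82.5 ± 11.6 FPKM. The ethanol-oxidising Cyp2e1 stood at 121 ± 28.3 FPKM, and the drug-metabolising CYP2D genes at 80.4 ± 14.0 (Cyp2d2), 52.9 ± 9.71 (Cyp2d1), 41.8 ± 10.5 (Cyp2d5) and 10.7 ± 1.79 FPKM (Cyp2d4). Cyp24a1, which inactivates vitamin D, was at 51.3 ± 11.6 FPKM, and Cyp27b1, which makes the active hormone, at 3.57 ± 1.43 FPKM. The remaining arachidonic acid epoxygenase subfamily members tested were lower, namely Cyp2c24 at 7.48 ± 2.53, Cyp2j4 at 7.94 ± 1.12, Cyp2j10 at 2.45 ± 0.472 and Cyp2c11 at 2.09 ± 1.32 FPKM. FPKM are per transcript length, so these levels can be set beside each other.

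Among genes of sterol and bile acid metabolism, Cyp27a1 (8.38 ± 0.969 FPKM in Vehicle), Cyp51 (8.31 ± 1.28), Cyp7b1 (3.08 ± 0.674) and Cyp8b1 (0.891 ± 0.397) were tested. Cyp21a1, a steroid hydroxylase of the adrenal cortex, was the single tested member of the steroid hormone class, at 0.673 ± 0.255 FPKM. Cyp1b1 was the single tested member of the CYP1 family and Cyp20a1, a P450 of uncertain substrate, stood alone in its class. None of the 3 CYP3A genes passed the filter, with means over all animals of 0.379 FPKM for Cyp3a9, 0.0705 for Cyp3a18 and 0.0131 for Cyp3a62. Cyp1a1 (0.0743 FPKM), Cyp1a2 (0.0624), Cyp17a1 (0.250), Cyp11a1 (0.228), Cyp11b3 (0.0239) and Cyp26c1 (0.0044) lay lower than Cyp3a9. The highest value of any gene under the filter was 3.62 FPKM, for Cyp2c7, and Cyp2f4, Cyp26a1, Cyp39a1 and Cyp46a1 had the highest means among them (0.707, 0.685, 0.649 and 0.539 FPKM).

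**Figure D1:**
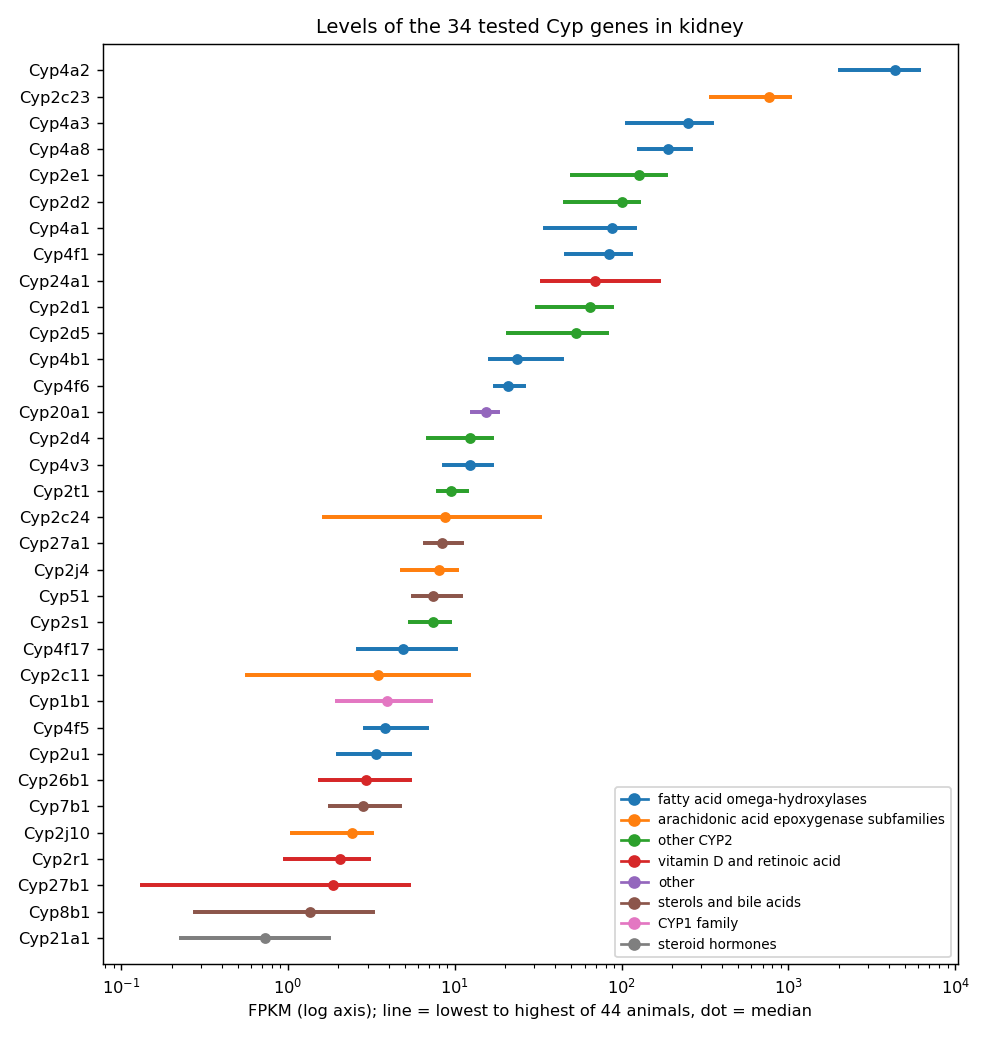
Levels of the 34 tested Cyp genes, ordered by mean. The horizontal axis is FPKM on a log scale, each dot is the median of 44 animals, each line runs from the lowest to the highest animal, and colours mark the classes; Cyp4a2 lies above all other genes, and Cyp2c24, Cyp2c11 and Cyp27b1 have wide ranges for their level.

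Several of these genes stand next to each other in the genome. In the RefSeq annotation of assembly GRCr8, Cyp4a8, Cyp4a2, Cyp4a3, Cyp4a1 and Cyp4b1 are neighbours on chromosome 5, Cyp2d4, Cyp2d5, Cyp2d1 and Cyp2d2 on chromosome 7, and Cyp2c11 and Cyp2c24 on chromosome 1. Closely related genes such as Cyp4a2 and Cyp4a3, or Cyp2d1 and Cyp2d5, can share reads, and how the counting divided them was not tested. The 250 bases before the start of Cyp4a2 and Cyp4a3 were 92.5% identical when aligned, with 236 identical bases, 9 mismatches and 10 gapped positions. The same stretch was 70.5% identical between Cyp2d1 and Cyp2d5 and 64.2% between Cyp2c11 and Cyp2c24.

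RefSeq promoter sequences of GRCr8 were matched by symbol for 58 of the 71 genes, 29 of the 34 tested. The stretches before the start of Cyp4a2 and Cyp4a3 are shown for this similarity, and those of Cyp2c11, Cyp27b1 and Cyp1b1 because these genes were called in the comparisons given next. They are the 250 bases before the start, 5′ to 3′ on the gene's strand, at chr5:134170909-134171158 (- strand), chr5:134352237-134352486 (- strand), chr1:246174966-246175215 (+ strand), chr7:64756376-64756625 (+ strand) and chr6:21094315-21094564 (+ strand). Capitals mark AGGTCA, the hexamer that nuclear receptors read, in Cyp4a2, Cyp4a3 and Cyp2c11, and GCGTG, the core read by the aryl hydrocarbon receptor Ahr, in Cyp1b1, where its first copy lies on the other strand and reads CACGC. Neither was found in Cyp27b1.
Cyp4a2: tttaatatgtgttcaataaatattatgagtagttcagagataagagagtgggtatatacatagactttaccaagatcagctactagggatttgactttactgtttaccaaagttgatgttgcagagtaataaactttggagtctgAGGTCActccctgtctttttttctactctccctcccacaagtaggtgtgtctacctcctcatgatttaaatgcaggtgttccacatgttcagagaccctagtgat
Cyp4a3: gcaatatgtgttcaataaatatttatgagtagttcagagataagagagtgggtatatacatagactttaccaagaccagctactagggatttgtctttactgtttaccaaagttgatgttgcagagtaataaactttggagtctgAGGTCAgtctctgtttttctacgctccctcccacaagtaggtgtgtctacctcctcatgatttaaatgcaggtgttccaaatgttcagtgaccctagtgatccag
Cyp2c11: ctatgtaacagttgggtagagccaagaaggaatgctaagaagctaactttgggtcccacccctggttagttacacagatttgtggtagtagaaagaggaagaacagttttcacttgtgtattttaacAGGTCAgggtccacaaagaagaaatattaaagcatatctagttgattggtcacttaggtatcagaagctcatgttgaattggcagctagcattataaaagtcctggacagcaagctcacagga
Cyp27b1: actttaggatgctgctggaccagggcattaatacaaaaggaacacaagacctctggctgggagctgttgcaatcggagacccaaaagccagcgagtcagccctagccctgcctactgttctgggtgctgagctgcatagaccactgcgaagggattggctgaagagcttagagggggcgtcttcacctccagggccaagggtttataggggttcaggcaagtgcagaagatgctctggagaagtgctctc
Cyp1b1: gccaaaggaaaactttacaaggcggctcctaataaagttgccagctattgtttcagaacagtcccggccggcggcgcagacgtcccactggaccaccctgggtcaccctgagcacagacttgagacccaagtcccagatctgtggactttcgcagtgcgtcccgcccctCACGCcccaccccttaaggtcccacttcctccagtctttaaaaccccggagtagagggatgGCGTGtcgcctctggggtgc

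Searched on both strands over the 250 bases before the start, AGGTCA was in 9 of the 29 tested genes' promoters (31%) and in 14.1% of all 33469 promoters. GCGTG was in 10 of 29 (34.5%) and in 25.9% of all. The direct repeat DR1, in which the hexamer stands a second time with 1 base between and which is read by the fatty acid receptor Ppara with its partner, was in 0 of 29 and in 0.0508% of all. In Cyp4a2 and Cyp4a3 alike the hexamer began 105 bases before the start, and in Cyp2c11 it began 123 bases before it. These matches describe letters in a window and were not tested as sites.

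The first question was which P450 genes differed between each treatment and Vehicle. A gene was called at an adjusted p under 0.05 (limma, Benjamini-Hochberg over all 13482 genes tested) with a fold change above 1.5 or under 0.66. Enalapril gave 6 called P450 genes of 34 tested, against 4.53% of all genes. Cyp2c11, Cyp24a1, Cyp2d5 and Cyp8b1 were higher, where 0.49% of all genes were called higher, and Cyp1b1 and Cyp27b1 were lower, where 4.04% were. The Combination gave 6 called genes of 34, those same genes in the same directions, against 7.38% of all genes (0.994% higher and 6.39% lower). Compound 1 gave 0 called genes of 34 by limma, against 0.2% of all genes, with 5 P450 genes at an unadjusted p under 0.05 (13.3% of all genes were). The 3 comparisons share the Vehicle animals. Without Enalapril animal 2012 the number with Enalapril was 3 (Cyp2d5, Cyp1b1 and Cyp27b1).

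Cyp24a1 and Cyp27b1, which degrade and produce active vitamin D, were called in opposite directions. Cyp24a1 ran from 33.3 to 73.8 FPKM (median 47.9) with Vehicle, 53.0 to 167 (median 77.5) with Enalapril, 53.6 to 103 (median 65.3) with Compound 1 and 47.5 to 129 (median 94.8) with the Combination. Values were higher in the treated animals but overlapped, with 5 of 9 Enalapril, 4 of 12 Compound 1 and 8 of 12 Combination animals above every Vehicle animal. The log2 fold change of Cyp24a1 was 0.70 ± 0.17 (SE) with Enalapril (limma adjusted p = 0.00413), 0.46 ± 0.12 with Compound 1 (adjusted p = 0.0824) and 0.83 ± 0.14 with the Combination (adjusted p = 0.000111). With Enalapril the call was lost without animal 2012, which had the highest value, where the log2 fold change was 0.57.

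Cyp27b1 ran from 1.28 to 5.34 FPKM (median 3.24) with Vehicle, 0.496 to 3.16 (median 2.06) with Enalapril, 0.132 to 3.31 (median 1.83) with Compound 1 and 0.366 to 2.35 (median 1.11) with the Combination. Treated animals were lower as a group, with 1 of 9 Enalapril, 4 of 12 Compound 1 and 7 of 12 Combination animals below every Vehicle animal. The log2 fold change was -0.87 ± 0.27 (SE) with Enalapril (limma adjusted p = 0.0189), -1.24 ± 0.33 with Compound 1 (adjusted p = 0.0969) and -1.47 ± 0.25 with the Combination (adjusted p = 0.000113). With Compound 1 it was called when all 4 groups were fitted together (adjusted p = 0.0400), and also without Compound 1 animal 3105 (-1.35, adjusted p = 0.0417). It was called as well with either marker covariate. It was not called with a pseudocount of 1 or 0.01, without the filter, under either other scaling or without Vehicle animals 1003 and 1004. Compound 1 animal 3001 was lowest at 0.132 FPKM, close to the pseudocount of 0.1, with the next animal at 0.649 FPKM. With Enalapril the call was lost under median-of-ratios scaling (log2 fold change -0.72, adjusted p = 0.0810), quantile normalization (-0.68, 0.128) and with inner medulla (-0.78, 0.176) or proximal tubule markers (-0.61, 0.433) as a covariate, whereas with the Combination it held under each alternative that was run and kept the gene.

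The other genes of this class moved less or did not pass. Cyp26b1, which clears retinoic acid, was at 3.44 ± 0.710 FPKM (SD) in Vehicle animals, 3.69 ± 1.07 under Enalapril, 2.43 ± 0.612 under Compound 1 and 2.63 ± 0.804 under the Combination. Its log2 fold change was -0.50 with Compound 1 (limma adjusted p = 0.101) and -0.41 with the Combination (adjusted p = 0.0291), under the fold threshold. Cyp2r1, a liver-type hydroxylase of vitamin D, was at 1.89 ± 0.414 FPKM in Vehicle and 2.08 ± 0.612 with the Combination. Vdr, the vitamin D receptor, was at 41.5 ± 6.82 FPKM in Vehicle and 59.1 ± 7.56 with the Combination. The log2 difference of Vdr was 0.33 ± 0.10 (SE) with Enalapril (adjusted p = 0.0173), 0.29 ± 0.08 with Compound 1 (adjusted p = 0.143) and 0.52 ± 0.09 with the Combination (adjusted p = 0.000123), under the fold threshold throughout.

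Within each group the correlation of Cyp24a1 with Cyp27b1 was tested, as 4 relations on the log2 scale with two-sided permutation tests, exact for Enalapril. It was negative in all 4 and passed in the Combination group alone. In the Combination group Pearson's r was -0.77 (permutation p = 0.00369, adjusted 0.0148) and Spearman's rho -0.90 (p = 0.0002, adjusted 0.000800), with r at -0.87 without the 2 animals farthest from the median. The relation did not pass in Vehicle (r = -0.57, rho = -0.45, permutation p = 0.0683 and 0.164), where r was -0.059 without 2 animals and so rested on them. It did not pass with Enalapril (r = -0.69, rho = -0.42, exact permutation p = 0.0575 and 0.270) or Compound 1 (r = -0.45, rho = -0.29, permutation p = 0.143 and 0.356), where r was -0.64 and -0.57 without 2 animals.

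**Figure D2:**
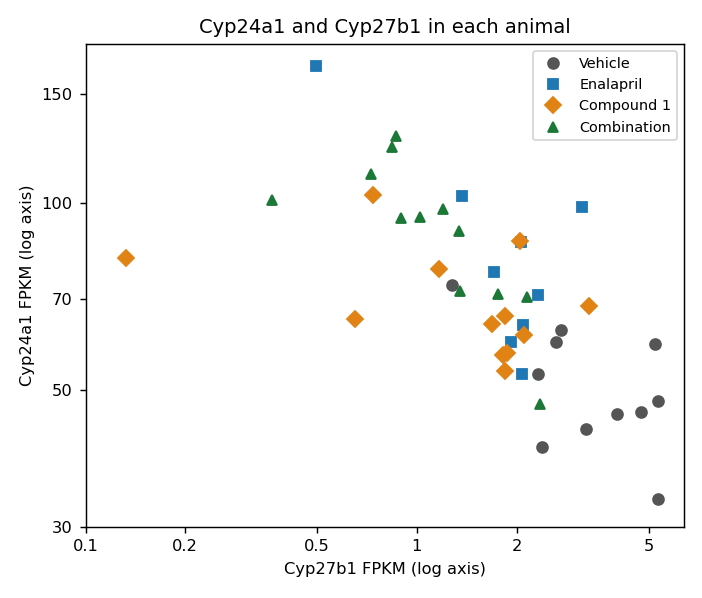
Cyp24a1 against Cyp27b1, both in FPKM on log axes, with 1 point per animal and a symbol per group. Most Vehicle animals lie at the lower right and most Combination animals at the upper left, and Enalapril animal 2012 is highest for Cyp24a1 at 167 FPKM.

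Cyp2c11, a male-predominant steroid and arachidonic acid hydroxylase of rat liver, had the largest fold change of the 34 with the Combination. It ran from 0.628 to 5.44 FPKM (median 1.99) with Vehicle, 2.02 to 12.1 (median 3.13) with Enalapril, 0.568 to 7.03 (median 3.71) with Compound 1 and 3.52 to 10.1 (median 6.46) with the Combination. Combination animals were highest as a group, 8 of 12 above every Vehicle animal, whereas 1 of 9 Enalapril and 2 of 12 Compound 1 animals were. The log2 fold change was 0.91 ± 0.32 (SE) with Enalapril (limma adjusted p = 0.0361), 0.76 ± 0.35 with Compound 1 (adjusted p = 0.351) and 1.77 ± 0.26 with the Combination (adjusted p = 3.22e-05). With Enalapril this call was lost on leaving out Vehicle 1002, 1003, 1004 or 1006 or Enalapril 2005, 2008 or 2012 (adjusted p up to 0.0690, log2 fold change from 0.69), whereas no such omission ended it with the Combination.

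Its neighbour Cyp2c24 ran from 3.24 to 11.6 FPKM (median 6.94) with Vehicle and 5.41 to 32.3 (median 12.9) with Enalapril. The log2 fold change with Enalapril was 0.62 (limma adjusted p = 0.0831). Enalapril animal 2012 was highest at 32.3 FPKM, the next at 14.7 FPKM. Cyp2c24 was called without Enalapril animal 2010 (0.75, adjusted p = 0.0370) and was not called without animal 2012. With the Combination it ran from 5.96 to 14.7 FPKM (median 9.81), a log2 fold change of 0.46 (adjusted p = 0.0441), under the fold threshold. Cyp2c23 rose below the fold threshold. It ran from 408 to 786 FPKM (median 657) with Vehicle, 760 to 967 (median 877) with Enalapril, 342 to 952 (median 669) with Compound 1 and 621 to 1023 (median 859) with the Combination. Its log2 fold change was 0.47 with Enalapril (adjusted p = 0.00269), 0.06 with Compound 1 (95% interval -0.22 to 0.33) and 0.45 with the Combination (adjusted p = 0.00109). Ephx2, which hydrolyses the epoxides these enzymes make, had log2 fold changes of 0.29 (adjusted p = 0.0170), -0.01 (adjusted p = 0.986) and 0.28 (adjusted p = 0.00429) with Enalapril, Compound 1 and the Combination.

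The CYP2D genes rose together in 4 of 4 members with Enalapril and with the Combination at an adjusted p under 0.05, where 3.57% and 6.38% of all genes were higher, and Cyp2d5 passed the fold threshold. Proximal tubule markers were higher in the same groups, and with their mean as a covariate the log2 fold change of Cyp2d5 was 0.11 with Enalapril and 0.41 with the Combination, neither called. Cyp2d5 ran from 20.8 to 56.6 FPKM (median 40.4) with Vehicle, 41.2 to 73.9 (median 65.4) with Enalapril, 22.9 to 75.6 (median 47.9) with Compound 1 and 48.0 to 81.7 (median 69.5) with the Combination. Nearly all Combination animals (11 of 12) and 7 of 9 Enalapril animals lay above every Vehicle animal. Its log2 fold change was 0.61 ± 0.14 (SE) with Enalapril (limma adjusted p = 0.00365), 0.19 with Compound 1 (95% interval -0.14 to 0.51) and 0.74 ± 0.12 with the Combination (adjusted p = 9.24e-05). With Enalapril the call was lost without Vehicle 1003 or Enalapril 2009, at log2 fold changes down to 0.52. Cyp2d2, Cyp2d1 and Cyp2d4 had log2 fold changes of 0.44, 0.48 and 0.33 with Enalapril and 0.52, 0.55 and 0.44 with the Combination.

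Cyp8b1, which sets the share of cholic acid in bile, was low in kidney. It ran from 0.277 to 1.52 FPKM (median 0.744) with Vehicle, 0.600 to 3.22 (median 1.87) with Enalapril, 0.483 to 1.85 (median 0.954) with Compound 1 and 0.693 to 3.03 (median 1.85) with the Combination. The groups overlapped, with 6 of 9 Enalapril and 7 of 12 Combination animals above every Vehicle animal. The log2 fold change was 0.86 ± 0.28 (SE) with Enalapril (limma adjusted p = 0.0256), 0.28 with Compound 1 (95% interval -0.26 to 0.82) and 0.92 ± 0.24 with the Combination (adjusted p = 0.00403). With a pseudocount of 1 these were 0.50 and 0.53 and no longer called, and with Enalapril the call was lost without Enalapril 2008 or 2012 (adjusted p up to 0.0511).

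Cyp1b1, an Ahr target that oxidises estrogens and hydrocarbons, fell with Enalapril and the Combination. It ran from 3.57 to 7.16 FPKM (median 5.47) with Vehicle, 2.03 to 4.66 (median 3.04) with Enalapril, 2.26 to 6.25 (median 4.81) with Compound 1 and 1.96 to 4.11 (median 3.04) with the Combination. Enalapril and Combination values sat low, 5 of 9 and 9 of 12 below every Vehicle animal, and Compound 1 values overlapped Vehicle almost wholly. The log2 fold change was -0.78 ± 0.15 (SE) with Enalapril (limma adjusted p = 0.000804), -0.22 with Compound 1 (95% interval -0.51 to 0.08) and -0.82 ± 0.13 with the Combination (adjusted p = 5.82e-05). Both calls held on leaving out any 1 animal, and under quantile normalization they missed the fold threshold at -0.58.

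**Figure D3:**
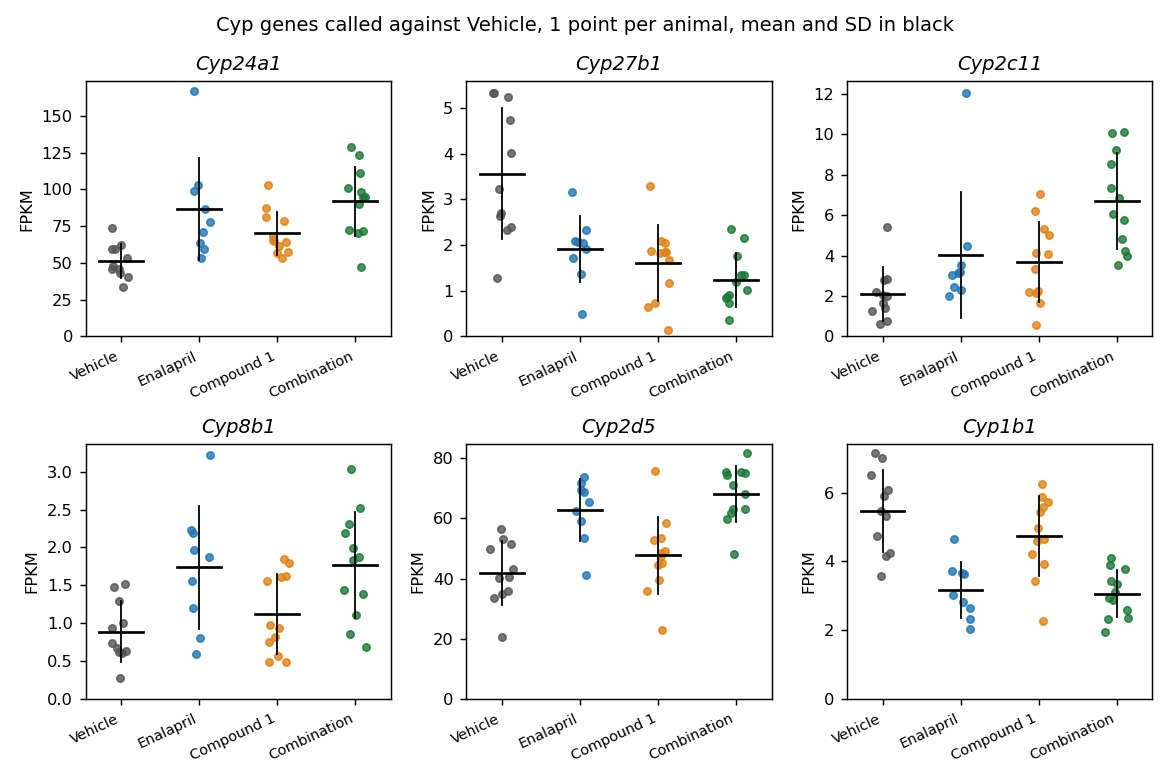
FPKM of the 6 genes called against Vehicle, with 1 point per animal in 4 groups, the mean as a horizontal bar and the SD as a vertical line; each vertical axis starts at 0. Cyp27b1 and Cyp1b1 sit lower with Enalapril and the Combination than with Vehicle, the other 4 higher, and the highest Cyp24a1 and Cyp2c11 points belong to Enalapril animal 2012.

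Without a fold threshold, 12 of 34 genes were higher and 5 lower with Enalapril at an adjusted p under 0.05, and 11 were higher and 9 lower with the Combination. Of all 13482 genes, 3.57% were higher and 26.6% lower with Enalapril, and 6.38% higher and 39.3% lower with the Combination. The median log2 fold change of the 34 was 0.13 for Enalapril, 0.04 for Compound 1 and 0.10 for the Combination, beside -0.15, -0.07 and -0.18 over all genes. Median-of-ratios scaling moved the median of all genes to 0.0065 with Enalapril and -0.0034 with the Combination, and the called P450 genes to 9 higher and 1 lower and to 11 higher and 2 lower. The calls over all 13443 genes tested under that scaling moved too, from 66 higher and 545 lower to 209 and 159 with Enalapril, and from 134 and 861 to 350 and 295 with the Combination. Cyp2c24, Cyp2c23, Cyp4f1, Cyp2d1 and Cyp2d2 were then called higher in both.

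By class, 3 of 11 omega-hydroxylases were higher with Enalapril (Cyp4a8, Cyp4a1 and Cyp4f1, at log2 fold changes of 0.27, 0.30 and 0.45) and 2 lower (Cyp4b1 at -0.39 and Cyp2u1 at -0.33). With the Combination 2 were higher (Cyp4a8 at 0.36 and Cyp4f1 at 0.54) and 3 lower (Cyp4b1 at -0.47, Cyp4f17 at -0.57 and Cyp4f5 at -0.29). Over all genes, the shares at that adjusted p under 0.05 were 3.57% higher and 26.6% lower with Enalapril. With the Combination they were 6.38% higher and 39.3% lower. Of the 4 sterol and bile acid genes, Cyp51, which acts in cholesterol synthesis, and Cyp7b1, which acts on oxysterols, were lower with the Combination (-0.28 and -0.37). Cyp27a1, at 8.38 FPKM in Vehicle and 8.46 with the Combination, did not pass. Under median-of-ratios scaling, the genes lower at an adjusted p under 0.05 numbered 1 with Enalapril (Cyp1b1) and 4 with the Combination. The number of falls with both thus depended on scaling, and Cyp27b1 with Enalapril was no longer among them (log2 fold change -0.72, limma adjusted p = 0.0810). Under that scaling Cyp1b1 was still called lower with both, and Cyp27b1 with the Combination.

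**Figure D4:**
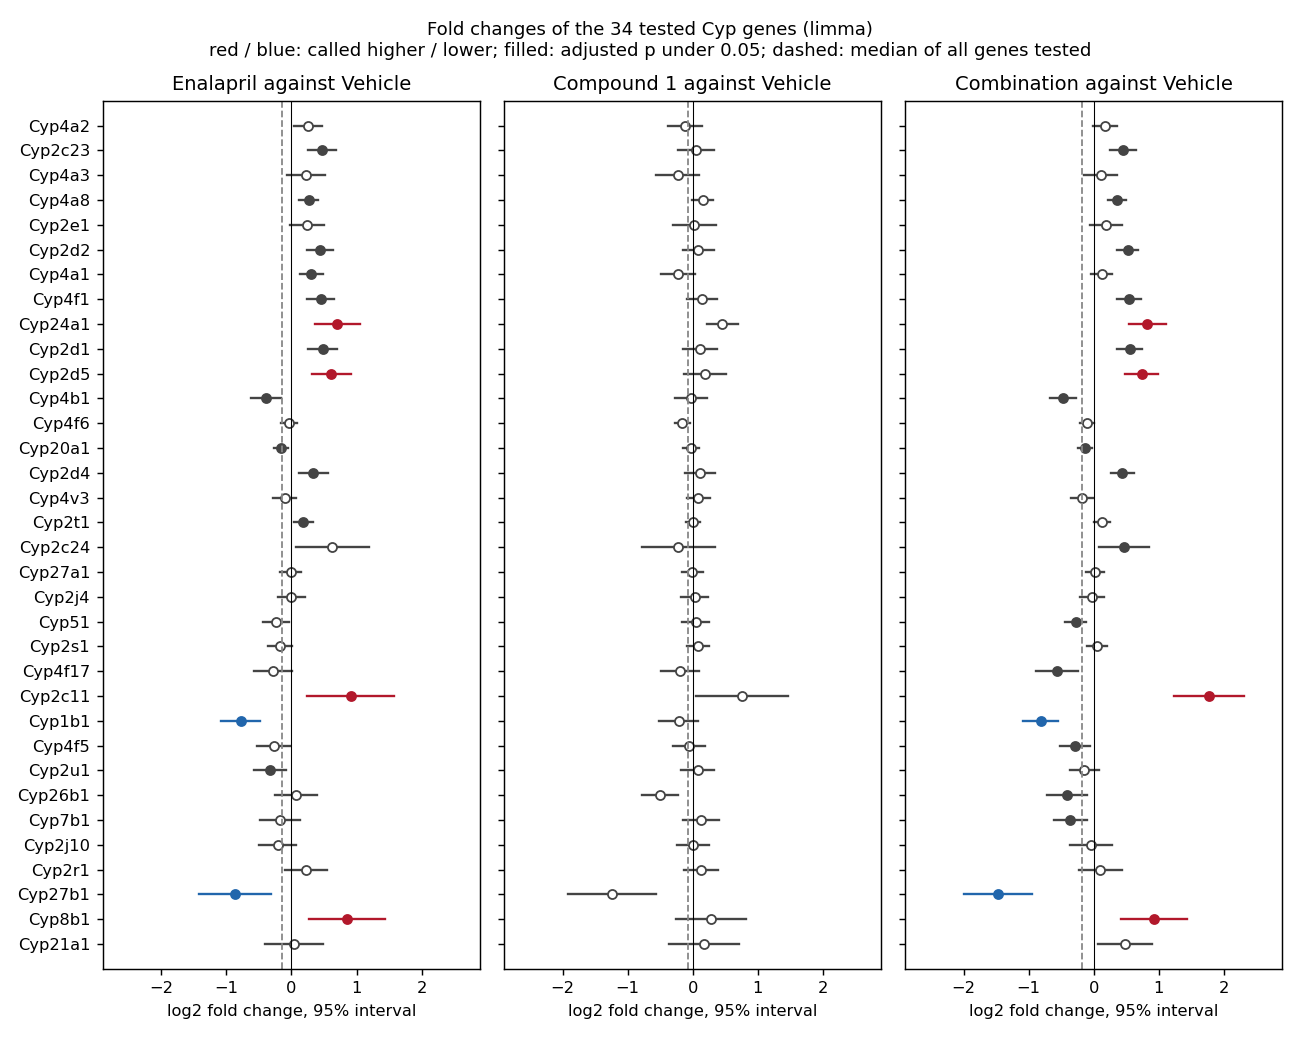
Log2 fold changes against Vehicle with 95% intervals for the 34 tested genes, ordered by level, in 3 panels. Filled points have an adjusted p under 0.05, red and blue mark genes called higher and lower, and the dashed line is the median of all 13482 genes, at -0.15, -0.07 and -0.18 from left to right.

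Markers of the proximal tubule, where many of these P450 genes are expressed, differed between the same groups. Of 20 markers, 16 were higher at an adjusted p under 0.05 with Enalapril and 16 with the Combination, 4 of them called in each, and 0 with Compound 1. Among all genes, 3.57% were higher at that adjusted p under Enalapril and 6.38% under the Combination. The shares called higher were 0.49% and 0.994%. The marker lists were picked after earlier results from the same data were known. Neither this count nor a fit with marker means as a covariate is thus independent of those results. The summed level of the 20 markers ranged from 4862 to 9033 FPKM in Vehicle animals, 8932 to 11225 under Enalapril, 4411 to 10145 under Compound 1 and 9167 to 11529 under the Combination. Their mean on the log2 scale ran from 6.81 to 7.55 in Vehicle animals, 7.54 to 7.82 under Enalapril and 7.45 to 7.89 under the Combination. Vehicle and Enalapril animals hardly overlapped in it, so a fit with both cannot well separate marker level from treatment. With the mean of these markers as a covariate, calls fell across all genes, to 0.00742% with Enalapril and 1.22% with the Combination. Of the 34 P450 genes, 0 were then called with Enalapril and 3 with the Combination (Cyp26b1, Cyp1b1 and Cyp27b1, all lower). The log2 fold changes with Enalapril became -0.65 for Cyp1b1, -0.61 for Cyp27b1, 0.35 for Cyp24a1, 0.18 for Cyp8b1, 0.11 for Cyp2d5 and -0.12 for Cyp2c11, which changed sign. Cyp2c11 then stood at -0.12 with Enalapril (adjusted p = 0.870) and at 0.82 with the Combination (adjusted p = 0.0554). Without Vehicle animals 1003 and 1004, which were low in these markers, 3 genes were called with Enalapril (Cyp24a1, Cyp1b1 and Cyp27b1) and 7 with the Combination.

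The 6 inner medulla markers found ranged from 95.5 to 191 FPKM summed in Vehicle animals, 77.7 to 118 under Enalapril, 93.0 to 183 under Compound 1 and 83.0 to 168 under the Combination, and 0 were called against Vehicle. At an adjusted p under 0.05 alone, 39.3% of all genes were lower with the Combination and 26.6% with Enalapril. Of the 6 markers, 2 were lower with the Combination, 1 with Enalapril and 0 with Compound 1. With their mean as a covariate, 1 P450 gene was called with Enalapril (Cyp1b1), 2 with Compound 1 (Cyp2c11 higher and Cyp27b1 lower) and 6 with the Combination, where 0.608%, 0.490% and 3.67% of all genes were called. The log2 fold changes with Enalapril became -0.78 for Cyp27b1, 0.59 for Cyp8b1, 0.53 for Cyp24a1, 0.37 for Cyp2c11 and 0.35 for Cyp2d5. Hepatocyte markers, of interest for the liver genes Cyp2c11 and Cyp8b1, summed to 28.1 to 158 FPKM in Vehicle animals, 15.4 to 91.9 under Enalapril, 33.3 to 267 under Compound 1 and 26.8 to 221 under the Combination. Of the 5 found, 1 was called against Vehicle, Fgb, lower with Enalapril. For the Combination against Compound 1, 1 of the 5 was called lower. None of these markers was listed at 0 in all animals. Their part in the P450 results was not tested beyond the inner medulla and proximal tubule covariates, and hepatocyte markers were not used as one.

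**Figure D5:**
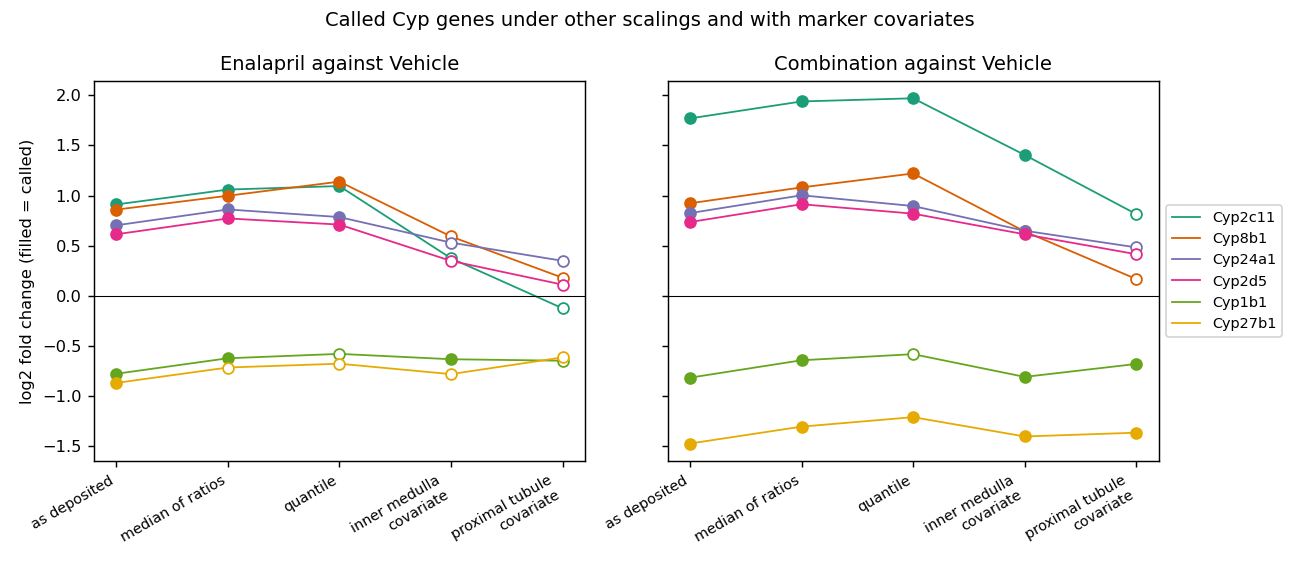
Log2 fold change of the 6 called genes with Enalapril (left) and with the Combination (right) as deposited, under 2 other scalings and with the mean of inner medulla or proximal tubule markers as a covariate. Filled points were called, and with the proximal tubule covariate Cyp27b1 and Cyp1b1 remained called with the Combination and none of the 6 with Enalapril.

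The next question was whether the Combination differed from either agent alone. Against Enalapril, 0 of 34 P450 genes were called by limma, against 0.00742% of all genes, and 3 were at an unadjusted p under 0.05 (Cyp2s1, Cyp2c11 and Cyp26b1), as were 10.4% of all genes. Cyp2c11 was 0.86 higher on the log2 scale (95% interval 0.20 to 1.52, adjusted p = 0.335) and Cyp27b1 stood at -0.60 (interval -1.26 to 0.06, adjusted p = 0.527). The intervals for Cyp24a1 (-0.20 to 0.44), Cyp2d5 (-0.17 to 0.41) and Cyp1b1 (-0.35 to 0.27) include 0. The interaction of Enalapril and Compound 1, which asks whether the effect of both departs from the sum of each on the log2 scale, was called for 0 of 34 genes, with 0 at an unadjusted p under 0.05 and a lowest adjusted p of 0.986. Of all genes 0.00742% were called and 4.29% had an unadjusted p under 0.05. Its interval was wide, from -0.81 to 1.01 for Cyp2c11.

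Against Compound 1, the Combination had 3 called genes of 34, against 2.33% of all genes (0.274% higher and 2.05% lower), at unequal doses of Compound 1. Cyp2c11 was higher by 1.01 ± 0.30 on the log2 scale (SE, limma adjusted p = 0.0151) and Cyp2c24 by 0.68 ± 0.26 (adjusted p = 0.0493), and Cyp1b1 was lower (-0.60 ± 0.14, adjusted p = 0.00274). The call of Cyp2c11 held on leaving out any 1 of 24 animals. It was lost without all animals whose numbers have 1 as the second digit (0.94, adjusted p = 0.0600). These were Compound 1 animals 3102 to 3105 and, in the same joint fit, Enalapril animal 2103. The call of Cyp2c11 was lost as well with the inner medulla covariate (0.46, adjusted p = 0.396). That of Cyp2c24 was lost in 16 of the 24 fits that left out 1 animal (adjusted p up to 0.125), those without Compound 1 animals 3001, 3007, 3008, 3009, 3102, 3103 or 3105 or Combination animals 4001, 4003, 4004, 4005, 4006, 4008, 4009, 4010 or 4012. That of Cyp1b1 was lost in 12, without Compound 1 animals 3001, 3007, 3008, 3009, 3012 or 3103 or Combination animals 4002, 4004, 4006, 4007, 4008 or 4010, at log2 fold changes up to -0.55 with an adjusted p up to 0.00739. The number of called genes fell to 1 without Compound 1 animals 3001, 3007, 3008, 3009 or 3103 or Combination animals 4004, 4006, 4008 or 4010, and rose to 5 without Compound 1 animal 3011 or Combination animal 4011, where Cyp2d5 and Cyp8b1 were also called. Cyp8b1, at 0.64 (adjusted p = 0.0624), was called as well without Compound 1 animals 3006, 3010 or 3104 or Combination animals 4001 or 4002. Under median-of-ratios scaling Cyp2d5 and Cyp8b1 were called and Cyp1b1 was not (-0.50). Cyp1b1 also missed the fold threshold under quantile normalization (-0.45) and with a pseudocount of 1 (-0.49). With the inner medulla covariate Cyp1b1 stood at -0.46 (adjusted p = 0.0961) and was not called. At an adjusted p under 0.05 alone, 11 genes were higher and 5 lower, where 4.72% and 17.4% of all genes were, with Cyp2d5 at 0.55 and Cyp2d2 at 0.44 among the higher and Cyp7b1 at -0.50 and Cyp4b1 at -0.45 among the lower. With the proximal tubule covariate 0 of the 34 were called, as were 0.00742% of all genes.

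Of the partner genes of the P450 enzymes, Hmox1 and Ppara were called, both with the Combination. Of all genes, 0.994% were called higher and 6.39% lower with it. At an adjusted p under 0.05 alone, 6.38% of all genes were higher and 39.3% lower with the Combination, and 3.57% and 26.6% with Enalapril. Of 9 redox partners and heme carriers tested, 2 were higher (the reductase Por and cytochrome b5, Cyb5a) and 1 lower (Pgrmc2) with Enalapril and with the Combination at an adjusted p under 0.05, and 0 were called. Por ran from 53.3 to 73.4 FPKM in Vehicle (median 63.6) and 65.8 to 82.3 with the Combination (median 76.1), a log2 fold change of 0.28 (limma adjusted p = 0.000405), beside 0.19 with Enalapril (adjusted p = 0.0407) and 0.03 with Compound 1 (adjusted p = 0.886). Of 12 genes of heme synthesis and breakdown, 3 were higher and 2 lower with the Combination at an adjusted p under 0.05, and 1 of each with Enalapril. The one called was the heme oxygenase Hmox1, lower with the Combination (-0.65, adjusted p = 0.000266). Mean Hmox1 was 15.8 ± 4.44 FPKM (SD) in Vehicle, 10.6 ± 2.35 with Enalapril and 9.85 ± 1.87 with the Combination. Of 17 receptors and factors tested that control P450 genes, 4 were higher and 5 lower with the Combination at an adjusted p under 0.05, and 3 and 2 with Enalapril. The one called was Ppara, higher with the Combination (0.63, adjusted p = 0.000240). Mean Ppara was 4.20 ± 0.624 FPKM (SD) in Vehicle, 6.32 ± 2.03 with Enalapril and 6.64 ± 1.36 with the Combination. Ahr, the activator of Cyp1b1, was lower with the Combination below the fold threshold (-0.45, adjusted p = 0.00320), at -0.17 with Enalapril (adjusted p = 0.321).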

How the data were processed

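Kidney RNA of 44 rats was sequenced, 1 library per animal. The authors deposited FPKM computed on rat build rn6. Which aligner and counter made them is not given in the sources used here. DESeq2 on raw counts was the authors' own test. FPKM are not counts, so no count model was used. Every value column was matched to its animal by its name, and 2 empty columns were left out.

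A gene was kept where 9 or more animals had an FPKM above 1, leaving 13482. Values entered limma 3.58.1 (R 4.3.3, trended variance) as log2(FPKM + 0.1), so fold changes of low genes are understated. Each treatment was fitted with Vehicle alone. The Combination against each agent and the interaction came from a joint fit of the 4 groups. Benjamini-Hochberg adjustment ran over all genes, and called genes also needed a fold above 1.5 or under 0.66. The test was checked on simulated data. P-values measure the spread between animals, and FPKM allow no counting interval.

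Members, classes and marker lists were chosen with earlier results of these data known. Named genes were all those called, up to 4 of highest mean per class, all of the vitamin D class, called partner genes, and Por, Vdr and Ephx2. Cyb5a, Pgrmc2, Ahr, Fgb and Apoh were named after their values were seen. So were Cyp4f1, Cyp4f5, Cyp4f6, Cyp4f17, Cyp4b1, Cyp2d4, Cyp2j10, Cyp2c7, Cyp2f4, Cyp2s1, Cyp2u1, Cyp39a1, Cyp46a1 and the genes listed at 0. Correlations used 100000 resamples or exact permutation. Alternatives were pseudocounts, filters, scalings, marker covariates, joint fits and the omission of single animals or of those with 1 as the second digit of their number.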

Additional observations from a re-analysis of the deposited data

Results flagged for a closer look

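In the 9 Enalapril animals, the highest or lowest animal stood apart from the next by a larger share of the group's whole range than Dixon's 95% critical value allows for 8 of the 34 tested genes. The groups of 11 and 12 animals were not examined this way, and chance gives about 1 in 20 groups. Animal 2012 had the highest Cyp2c11 (12.1 FPKM, the next at 4.49), Cyp2c24 (32.3 FPKM, the next at 14.7) and Cyp24a1 (167 FPKM, the next at 103). Animal 2010 had the highest Cyp4f17 (7.63 FPKM, the next at 5.23) and Cyp4f6 (25.9 FPKM, the next at 22.1) and the lowest Cyp2j4 (5.30 FPKM, the next at 7.33). Animal 2001 had the highest Cyp4f5 (4.86 FPKM, the next at 3.88) and the lowest Cyp2r1 (1.10 FPKM, the next at 2.05). Without animal 2012, Cyp2c11, Cyp24a1 and Cyp8b1 were no longer called with Enalapril, and without animal 2010 Cyp2c24 was called higher.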

How the results depend on the processing

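The number of called P450 genes was 6 with Enalapril, 0 with Compound 1, 6 with the Combination, and 3 for the Combination against Compound 1. Median-of-ratios scaling gave 10 with Enalapril and 13 with the Combination. The inner medulla covariate gave 1 with Enalapril, 2 with Compound 1 and 0 for the Combination against Compound 1. The proximal tubule covariate gave 0 with Enalapril, 1 with Compound 1, 3 with the Combination and 0 for the Combination against Compound 1. With it, Cyp2c11 with Enalapril changed sign to -0.12 and Cyp2c24 in the Combination against Compound 1 to -0.079. A fit of all 4 groups gave 1 with Compound 1, and a pseudocount of 1 gave 1 for the Combination against Compound 1. Leaving out Vehicle animals 1003 and 1004, an alternative chosen after seeing the data, gave 3 with Enalapril. Leaving out each animal gave 3 to 7 with Enalapril, 0 to 1 with Compound 1, 6 to 7 with the Combination and 1 to 5 for the Combination against Compound 1. The other alternatives kept each count within 1.5 times. The genes behind a count could still change, as for the Combination against Compound 1 under median-of-ratios scaling. Why calls moved was not tested, and the unknown depth limits what can be said of genes near 1 FPKM. No paired analysis was possible because animals were separate between groups and shared no numbers.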
